A study of Mus musculus with 60 samples.

Results

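The AP-1 transcription factors Fos, Fosb, Fosl1, Fosl2, Jun, Junb and Jund were followed in primary mouse hepatocytes given hepatocyte growth factor (HGF). Their probes were chosen by gene symbol in the annotation of the array, which gave 8 probes for the 7 genes among 21997 probes in all. Fos had 2 probes and each other gene had 1. Of the 8 probes, 7 were among the 14580 probes tested (66.3% of the array), and the Fosb probe was not, because only 1 of the 3 replicates of KO at 12 h had both of its arrays. KO hepatocytes were labelled Alb-Cre +/-; Met Fl/Fl on a 129SV/C57BL6 strain, and WT hepatocytes were Cre controls on a C57BL strain, labelled heterozygous for Cre on some arrays only. Cre in this line is driven by the albumin promoter, which is active in hepatocytes, and Met encodes the HGF receptor. All mice were adult males aged 9 to 10 weeks. The cultures were kept in serum-free medium overnight and were then taken untreated (0 h) or after exposure to recombinant HGF. The exposures lasted 0.5, 2, 12 and 24 h, which gave 10 groups of 3 replicates. The labels describe the replicates as cultures from 3 individual mice, and times may share a mouse. The dose is 50 ng/ml in the culture protocol and 50 nM in another label. Strain differed with genotype on every array, so strain and Met deletion cannot be told apart. Cultures of the later times without HGF were not analysed here, so neither can HGF and time in culture.

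AP-1 is a family of dimers that bind a short palindromic DNA element. Fos proteins need a Jun partner to bind it, while Jun proteins can also pair with each other, and the makeup of the dimer sets how strongly it activates. Several members are immediate early genes: growth factor receptors act through MAP kinases on factors already bound to their promoters, and in the liver Fos, Jun and Junb are known for a rapid rise of their mRNA after partial hepatectomy.

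The 250 bases before a RefSeq transcript start (GRCm38.p6) are shown for the 4 genes on which the results turn. Junb was the member that differed between the genotypes, and Jun, Fosb and 1 Fos probe were higher at 2 h than at 0.5 h in WT. Capitals mark TGACG, the core of the cyclic AMP response element, in Junb, Fosb and Fos, TGACATCA, the site known to take Jun and Atf2 dimers, in Jun, and TATAA in Fos. These letters were picked after the sequences had been read.
Junb, chr8:84978749-84978998, minus strand: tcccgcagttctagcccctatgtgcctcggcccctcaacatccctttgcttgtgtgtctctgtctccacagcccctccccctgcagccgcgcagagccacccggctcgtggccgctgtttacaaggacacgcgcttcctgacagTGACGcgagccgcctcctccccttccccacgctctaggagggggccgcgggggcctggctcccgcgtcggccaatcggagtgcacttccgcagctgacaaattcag
Jun, chr4:95052223-95052472, minus strand: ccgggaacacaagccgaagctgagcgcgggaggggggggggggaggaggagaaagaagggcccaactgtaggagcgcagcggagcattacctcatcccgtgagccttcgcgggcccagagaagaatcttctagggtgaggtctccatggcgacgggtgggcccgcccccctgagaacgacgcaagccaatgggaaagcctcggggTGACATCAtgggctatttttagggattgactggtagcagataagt
Fosb, chr7:19310046-19310295, minus strand: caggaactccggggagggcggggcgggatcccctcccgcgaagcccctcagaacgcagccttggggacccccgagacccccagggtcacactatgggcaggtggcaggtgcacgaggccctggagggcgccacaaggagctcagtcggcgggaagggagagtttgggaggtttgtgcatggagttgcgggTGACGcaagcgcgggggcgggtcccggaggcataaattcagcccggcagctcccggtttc
Fos, chr12:85473640-85473889, plus strand: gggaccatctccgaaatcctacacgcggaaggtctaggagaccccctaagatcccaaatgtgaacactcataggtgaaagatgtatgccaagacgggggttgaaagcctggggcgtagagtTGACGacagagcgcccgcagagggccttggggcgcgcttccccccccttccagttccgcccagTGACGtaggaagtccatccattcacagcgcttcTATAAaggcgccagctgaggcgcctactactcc
TGACG lies 106 to 102 bases before the start of Junb, 60 to 56 before that of the Fosb window, and 129 to 125 and 66 to 62 before that of Fos. TGACATCA lies 45 to 38 bases before the start of Jun. Searched on both strands, TGACG was in 17.77% of the 32851 mouse promoter windows of this length and TGACATCA in 2.93%. TATAA, searched on the coding strand, was in 16.0%. Within these 250 bases no member window held TGACGTCA (1.55% of all windows), the AP-1 element TGANTCA (6.75%) or the CArG box of serum response factor (1.47%). Sites farther before the start were not searched. The windows of Junb, Jun and Fos end where the gene begins. The Fosb window ends at a start inside the gene, so 73 of its bases, TGACG among them, lie within the gene span given here. Windows for 6 of the 7 genes were found by symbol, and Fosl1 was the one without. The transcribed genes lie at chr8:84976909-84978748 (Junb), chr4:95049036-95052222 (Jun), chr7:19302696-19310118 (Fosb) and chr12:85473890-85477274 (Fos), and where in each gene the probe lies is not known here.

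A replicate was hybridised to 2 oligonucleotide arrays with both dyes, its RNA in Cy5 on 1 and in Cy3 on the other, against RNA pooled from WT hepatocytes, 60 arrays in all. An array held values for 17356 to 21511 probes. Levels are log2 ratios to the pool, averaged over the 2 orientations, so a level of 0 equals the pool. Which RNA is the numerator is not stated. The labels list the pool as the first channel and the culture as the second, and culture over pool is the likely direction. Among arrays of the same dye, 19 pairs correlated below -0.3 over probes (lowest r = -0.52), and each of them included the Cy5 array of WT 0 h replicate 3. Its direction is unsettled, so the main AP-1 results that use it are also given with its sign turned. Results are also given without this replicate and the noisy KO 24 h replicate 2 (the doubted replicates) where they rest on them. The joint test over the HGF times and the results of genes outside the AP-1 family use the unsettled array as deposited. Array numbers form 4 sets, A to D: all 0.5 h replicates lie in set D, all 2 h replicates also but for KO replicate 3 (set A), and all 12 h replicates in set C. Untreated and 24 h replicates lie in sets A, B and C, and WT 24 h replicate 2 had its Cy5 array in set C and its Cy3 array in set B. The Met probe did not show the deletion, with genotype differences from -0.03 ± 0.17 at 12 h to 0.30 ± 0.26 at 24 h (log2 ± SE, none called), and its position relative to the floxed exons is not known. Differences below are log2 differences ± SE from limma, and a probe was called where p, adjusted by Benjamini-Hochberg over all tested probes, was under 0.05. The number of replicates limits their precision.

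**Figure D1:**
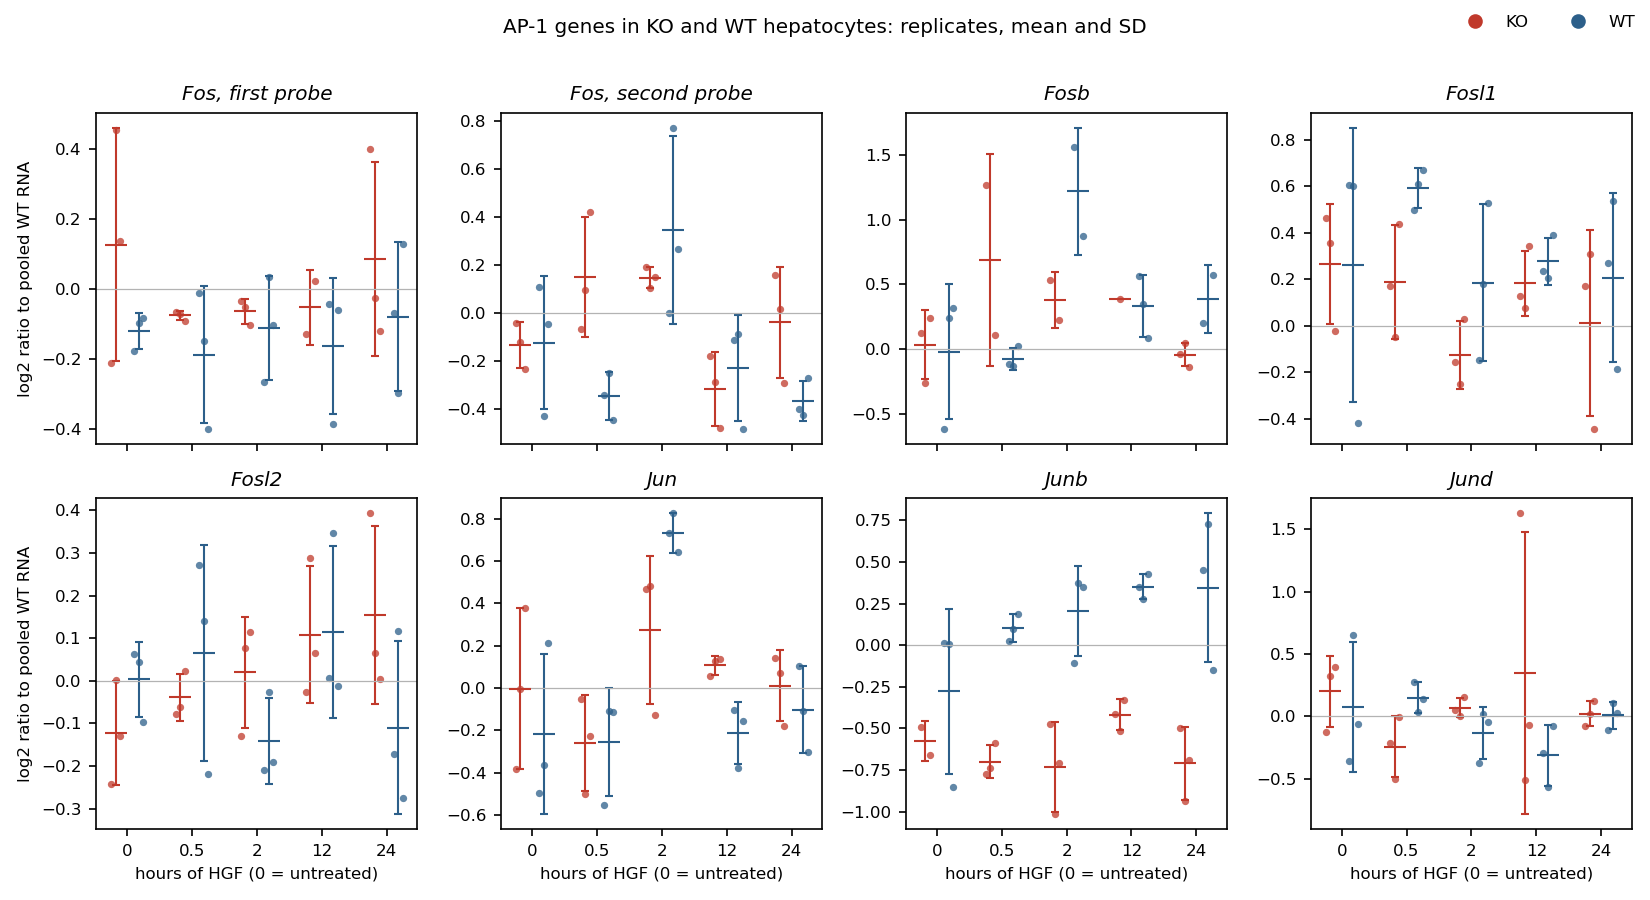
Level of each of the 8 AP-1 probes (log2 ratio to pooled WT RNA) against hours of HGF, with KO in red left of WT in blue, where points are replicates and bars the mean and SD. The KO points of Junb lie below the WT points at 0.5, 2, 12 and 24 h, and the WT points of Jun stand highest at 2 h.

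Junb, a Jun protein that activates more weakly than Jun and can hold Jun back, was lower in KO hepatocytes. Untreated, its level was -0.49 and -0.66 in KO (2 replicates with both arrays), against 0.01, 0.01 and -0.85 in WT. The low WT replicate is the one with the unsettled array, and it lay below both KO replicates. At 0.5 h the levels were -0.78, -0.74 and -0.59 in KO, against 0.02, 0.10 and 0.19 in WT. At 2 h they were -0.47, -1.01 and -0.71 in KO, against -0.11, 0.37 and 0.35 in WT. At both times the highest KO replicate lay below the lowest WT replicate, which was so for 22.5% and 11% of all probes. At 12 h the levels were -0.41, -0.52 and -0.33 in KO, against 0.35, 0.28 and 0.43 in WT. At 24 h they were -0.50, -0.94 and -0.69 in KO, against 0.45, 0.73 and -0.15 in WT. KO again lay below WT without overlap at both times (14.2% and 7.1% of all probes), and WT replicate 3 at 24 h was the WT culture closest to KO.

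In the limma fit, Junb fell in KO relative to WT by 0.80 ± 0.15 at 0.5 h (adjusted p = 0.000663), a 1.75-fold lower level. The difference was -0.94 ± 0.14 at 2 h (adjusted p = 0.000368), 1.91-fold lower, and -0.77 ± 0.18 at 12 h (adjusted p = 0.0127), 1.70-fold lower. At 24 h it was -1.05 ± 0.28 with an adjusted p of 0.0709, which missed the threshold in the noisiest groups of the series. Over 45 alternatives the 24 h difference ran from -1.31 to -0.81 and stayed uncalled in 36 (adjusted p up to 0.848). Without WT 24 h replicate 3, the WT replicate closest to KO, it was -1.30 (adjusted p = 0.0042). Untreated, the difference was -0.30 ± 0.23 with an adjusted p of 1, its 95% interval running from -0.78 to 0.19. With the sign of the unsettled array turned it was -0.78 (adjusted p = 0.243), and without the doubted replicates -0.59 (adjusted p = 0.323). Averaged over the 5 times Junb was 1.71-fold lower in KO, by -0.77 ± 0.09 (adjusted p = 3.46e-06, 14 and 15 replicates), and this value was -0.87 with the sign turned and -0.81 without the doubted replicates. By p its rank was 47 of 14580 probes in that average. In such bulk RNA, fewer cells of a type and less RNA per cell cannot be told apart.

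Of the 7 tested AP-1 probes, Junb was the 1 called at 2 h, at 12 h and in the average, where 4.52%, 4.49% and 9.64% of all probes were called, and 1.39%, 2.5% and 5.05% were called lower. At 0.5 h, 2 of the 7 were called (Junb lower and the second Fos probe higher), where 19.8% of all probes were called, 8.7% higher and 11.1% lower, so the count there is near that of the array. At 0 h and at 24 h 0 of the 7 were called in the weighted limma fit, where 0.0137% and 1.11% of probes were. Over the 5 times, 8 of 35 member tests had an unadjusted p under 0.05, and the limma fit with 1 shared spread also called Junb at 24 h (adjusted p = 0.0030). In that limma fit the other calls of Junb were kept but were weaker. Its adjusted p was 0.0311 at 0.5 h, 0.0438 at 2 h and 0.0463 at 12 h. Junb was called lower in KO at 3 of the 5 times, and 0.309% of all probes were called lower at 3 or more. All 0.5 h replicates share array set D and all 12 h replicates share set C, so both differences hold within 1 set. Within a set, at 0.5, 2, 12 and 24 h alike, the arrays of 1 genotype are all numbered before those of the other. Genotype and array order thus cannot be told apart there. At 2 h, with set D alone, the difference was -0.95 ± 0.14 (adjusted p = 0.0006), and at 24 h, with KO replicates 1 and 2 and WT replicate 1, which had both arrays in set C, -1.17 ± 0.29 (adjusted p = 0.0437). The lone WT replicate is assumed there to vary like the other groups.

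**Figure D2:**
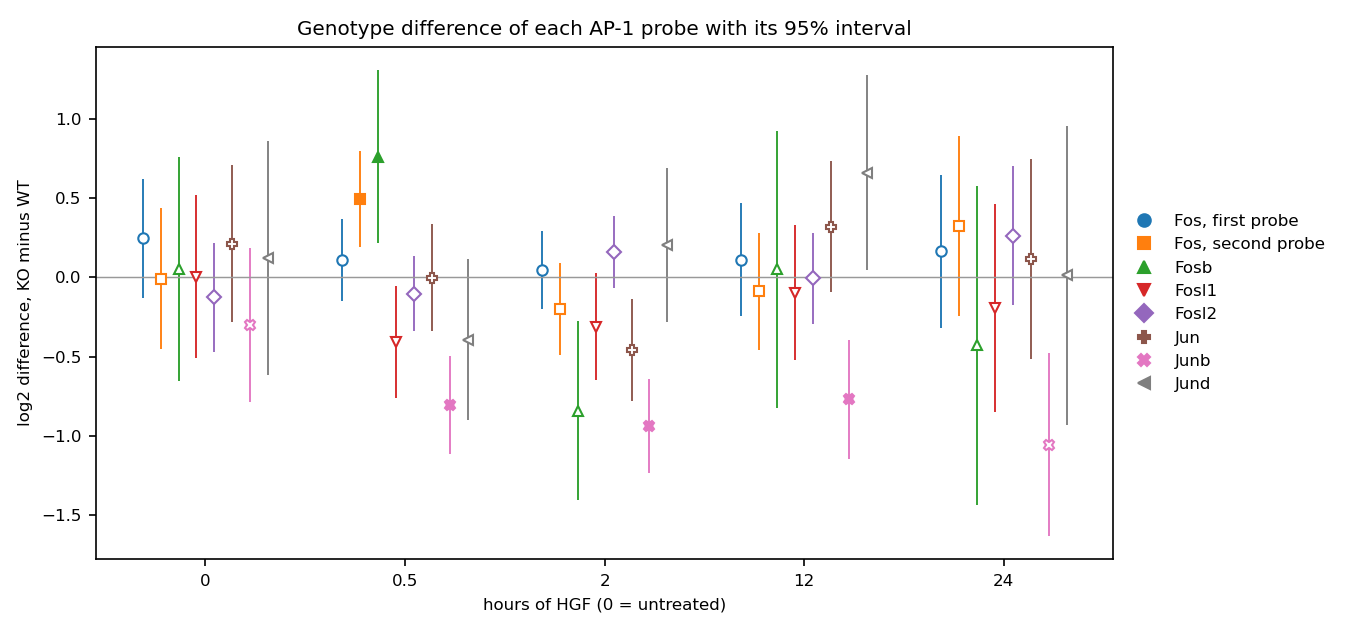
Genotype difference (log2, KO minus WT) of each AP-1 probe against hours of HGF with its 95% interval. Filled symbols are called, and Fosb comes from a fit with a looser probe filter. Junb is at -0.80, -0.94 and -0.77 at 0.5, 2 and 12 h, with intervals below 0.

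The 2 dye orientations were set side by side, because 23 of the 30 pairs of arrays correlated below 0 over probes. The genotype difference on Cy5 arrays was correlated over all probes with that on Cy3 arrays. The r was -0.17 at 0 h, 0.01 at 0.5 h, 0.33 at 2 h, 0.20 at 12 h and 0.23 at 24 h. For Junb the difference on Cy5 arrays was -0.13, -0.88, -1.27, -1.06 and -0.82 from 0 to 24 h. On Cy3 arrays it was -0.39, -0.73, -0.60, -0.48 and -1.29. KO was thus below WT in all 10 means of orientation and time, which held for 0.789% of all probes. With 1 orientation alone some single calls were lost: the adjusted p was 0.0736 at 0.5 h on Cy5 arrays, and 0.0714 at 2 h and 0.378 at 12 h on Cy3 arrays.

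**Figure D3:**
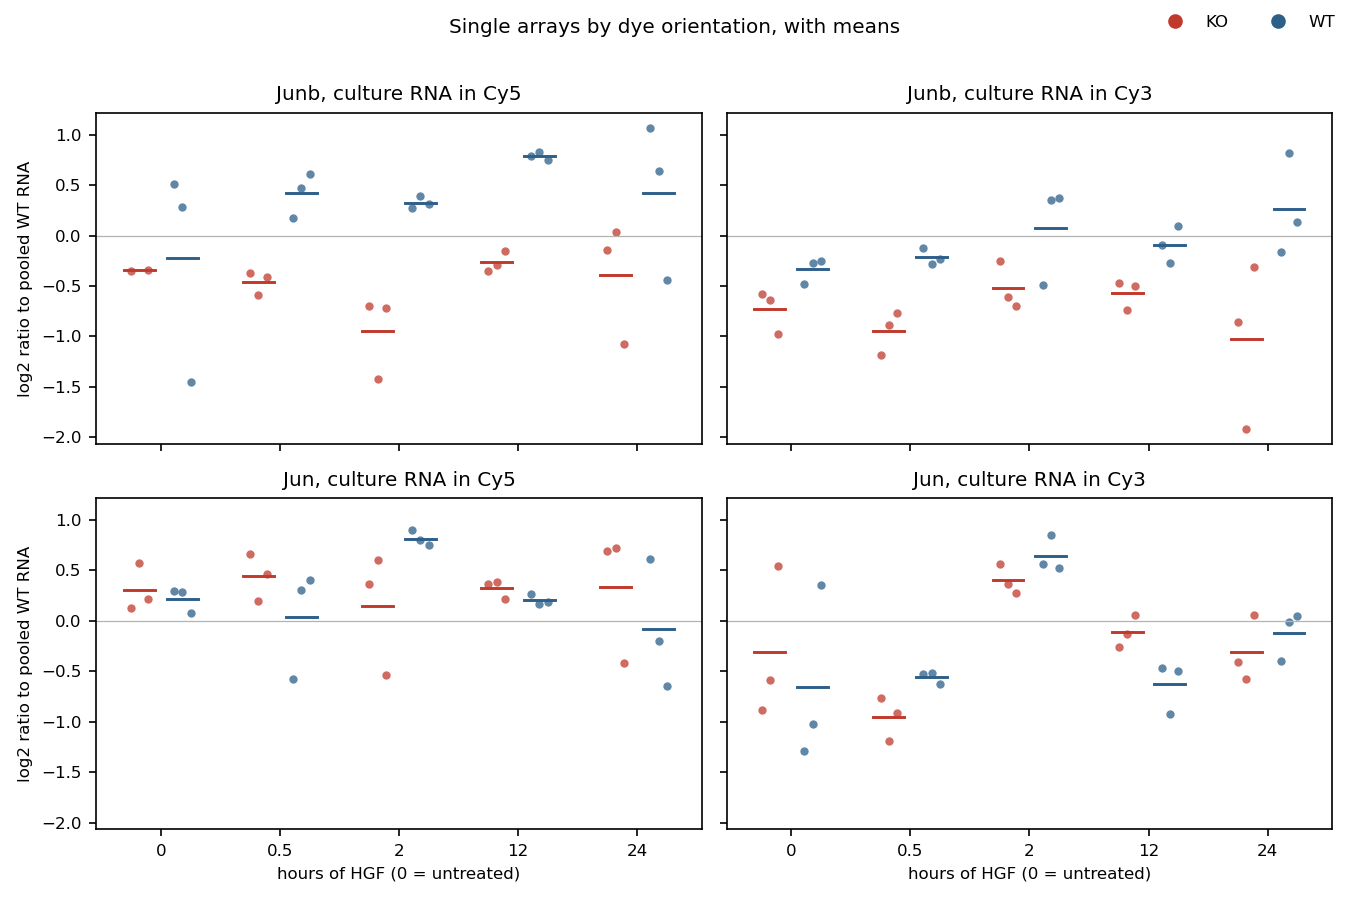
Single arrays of Junb (upper row) and Jun (lower row), with the culture's RNA in Cy5 (left) or in Cy3 (right), as log2 ratio to pooled WT RNA against hours of HGF, with KO in red left of WT in blue. Lines are group means. Junb lies lower in KO in both orientations, and Jun in WT at 2 h stands at 0.82 on Cy5 and 0.65 on Cy3 arrays.

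Ordered by mean level, the WT groups of Junb held the first 5 places (0.35 at 12 h, 0.34 at 24 h, 0.20 at 2 h, 0.10 at 0.5 h and -0.28 untreated). The KO groups held the other places (-0.42 at 12 h, -0.58 untreated, -0.70 at 0.5 h, -0.71 at 24 h and -0.73 at 2 h). Neighbours in that order overlapped, apart from WT at 0.5 h and WT untreated. The untreated WT mean rests on the unsettled array: it was 0.21 with the sign turned, above WT at 2 and 0.5 h, and 0.01 without that replicate, below both. Within WT, Junb differed from untreated by 0.38 ± 0.21 at 0.5 h, 0.48 ± 0.21 at 2 h, 0.63 ± 0.22 at 12 h and 0.62 ± 0.28 at 24 h, and none of these passed (adjusted p from 0.106 to 0.444). With the sign turned they were -0.10, 0.00, 0.14 and 0.14, and without that replicate 0.09, 0.19, 0.34 and 0.33, none passing. Within KO the same differences were -0.12 ± 0.18, -0.16 ± 0.18, 0.16 ± 0.20 and -0.13 ± 0.24, and none passed. The difference of these responses, KO minus WT, was -0.50 ± 0.28, -0.64 ± 0.27, -0.47 ± 0.30 and -0.75 ± 0.37, also without passing (adjusted p from 0.520 to 0.948). With the sign turned it was -0.02, -0.15, 0.02 and -0.27, and without that replicate -0.22, -0.35, -0.18 and -0.47. A few alternatives did call Junb in WT over untreated: at 12 h with dye profiles removed (0.64, adjusted p = 0.0262), and at 24 h with array set as a term (0.62, adjusted p = 0.0169) or without WT 24 h replicate 3 (0.87, adjusted p = 0.0398). The size of any response of Junb thus depends on the unsettled array.

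Jun, the partner through which most AP-1 dimers form, was highest in WT hepatocytes at 2 h of HGF. Its levels at 2 h were 0.47, 0.48 and -0.13 in KO, against 0.73, 0.82 and 0.64 in WT. The WT replicates all lay above the KO replicates, which was so for 11% of all probes, and no other group reached the WT replicates. At 0.5 h the levels were -0.05, -0.50 and -0.23 in KO, against -0.55, -0.11 and -0.11 in WT, and the genotypes overlapped. In WT, Jun rose by 0.99 ± 0.16 at 2 h over 0.5 h (adjusted p = 4.69e-05), a 1.98-fold higher level, with 0.77 on Cy5 and 1.20 on Cy3 arrays, and the 2 WT groups did not overlap (20.8% of all probes rose without overlap). In KO it was higher by 0.53 ± 0.16 (adjusted p = 0.0375), but by -0.30 on Cy5 arrays and 1.36 on Cy3 arrays, so the KO direction rests on 1 orientation. KO replicate 3 at 2 h, the one outside array set D, was the low one, and without it the KO difference was 0.73 ± 0.15 (adjusted p = 0.0028). Without KO 0.5 h replicate 2 or 3, or KO 2 h replicate 1 or 2, the KO difference lost its call (0.41 to 0.55). The difference of the steps, KO minus WT, was -0.46 ± 0.23 (adjusted p = 0.189), and KO minus WT at 2 h was -0.46 ± 0.16 (adjusted p = 0.0981), so a genotype difference of Jun did not pass.

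Against untreated, Jun in WT at 2 h differed by 0.95 ± 0.23 with an adjusted p of 0.0776, the 2 h group lying above without overlap (7.6% of all probes). Untreated WT replicates were at -0.50, -0.36 and 0.21, the last being the doubted one, and without it the difference was 1.16 ± 0.21 with an adjusted p of 0.0026. With the sign of its unsettled array turned the difference was 0.97 (adjusted p = 0.0098). With array set as a term in the fit it was -0.19 ± 0.33, since untreated and 2 h arrays share no set in WT and are then linked through the KO arrays of set A. Jun in KO at 2 h differed from untreated by 0.28 ± 0.18 (adjusted p = 0.545). By 12 h Jun was back near the pool, with means of 0.11 ± 0.05 in KO and -0.21 ± 0.15 in WT (SD, n = 3 each), and at 24 h the means were 0.01 ± 0.17 in KO and -0.10 ± 0.20 in WT.

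Fos, the classical immediate early partner of Jun, was read by 2 probes that did not follow each other (r = 0.16 over 29 replicates). The first probe was nearly flat, with replicates from -0.40 to 0.45 over all groups, and it was called in no comparison under any alternative run. The second probe at 2 h stood at 0.19, 0.10 and 0.15 in KO, against 0.00, 0.77 and 0.27 in WT. At 0.5 h it stood at -0.07, 0.10 and 0.42 in KO, against -0.34, -0.25 and -0.44 in WT. The genotypes overlapped at 2 h, while at 0.5 h KO lay above WT without overlap (15.8% of all probes). The value of 0.77 rests on 1 Cy3 array at 1.96, whose Cy5 partner read -0.42. By this probe Fos was 1.41-fold higher in KO at 0.5 h (0.50 ± 0.15, adjusted p = 0.0201). The call was lost without KO replicate 3 (0.36, adjusted p = 0.135) or WT replicate 3 (0.44, adjusted p = 0.0955), with 1 shared spread (adjusted p = 0.0949), with dye profiles removed (0.41, adjusted p = 0.0873), and on Cy5 or Cy3 arrays alone (0.45 and 0.54, adjusted p = 0.351 and 0.0823). In WT it rose by 0.69 ± 0.14 at 2 h over 0.5 h (adjusted p = 0.000596), and by 0.48 ± 0.13 (adjusted p = 0.0076) without that replicate. In KO the step was 0.00 ± 0.15 (adjusted p = 0.994). The difference of the steps, KO minus WT, was -0.69 ± 0.20 (adjusted p = 0.0282), a comparison added after the values had been seen, which 12.7% of all probes passed. Without WT 2 h replicate 2 it was -0.48 (adjusted p = 0.0774). The first probe changed by 0.01 ± 0.13 in KO and 0.08 ± 0.12 in WT over the same step, so the 2 probes annotated as Fos gave different readings of it.

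Fosb, an early Fos protein closely related to Fos, showed the largest step of the members in WT, in a fit that admitted 17864 probes. Its levels at 2 h were 0.53 and 0.22 in KO, against 1.56 and 0.87 in WT (2 replicates each with both arrays). At 0.5 h they were 1.27 and 0.11 in KO, against -0.11, -0.13 and 0.02 in WT. The WT groups at the 2 times, of 2 and 3 replicates, did not overlap. In the main fit 20.8% of the 14580 probes rose in WT without overlap. The 2 KO replicates at 0.5 h differed from each other by more than the genotypes did. In WT, Fosb rose by 1.29 ± 0.25 at 2 h over 0.5 h (adjusted p = 0.000625), 2.45-fold, with 1.15 on Cy5 and 1.23 on Cy3 arrays. In KO the step was -0.31 ± 0.28 (adjusted p = 0.558). The difference of the steps, KO minus WT, was -1.60 ± 0.37 (adjusted p = 0.0111). In that fit 35.8% of probes were called for the WT step and 11.8% for the difference of the steps. KO minus WT was 0.76 ± 0.26 at 0.5 h (adjusted p = 0.0463, where 19.7% of probes were called) and -0.84 ± 0.27 at 2 h (adjusted p = 0.0898). The call at 0.5 h rests on KO replicate 1, whose Cy5 array read 1.97: without that replicate KO minus WT at 0.5 h was 0.18 (adjusted p = 0.678) and the difference of the steps -1.02 (adjusted p = 0.0615). On Cy5 arrays KO minus WT at 0.5 h was 1.15 and on Cy3 arrays 0.19, neither passing alone. The difference of the steps also lost its call without KO 2 h replicate 2 (-1.45), on Cy5 arrays alone (-1.39) and with 1 shared spread (adjusted p = 0.118), while the WT step passed in all 13 alternatives run for Fosb (0.94 to 1.64). At 2 h KO minus WT passed in 3 of them, without either KO 0.5 h replicate and on Cy3 arrays alone (-1.23, adjusted p = 0.0112). In KO at 12 h only replicate 1 had both arrays, at 0.38, against 0.57, 0.35 and 0.09 in WT, and no spread can be given for that group.

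**Figure D4:**
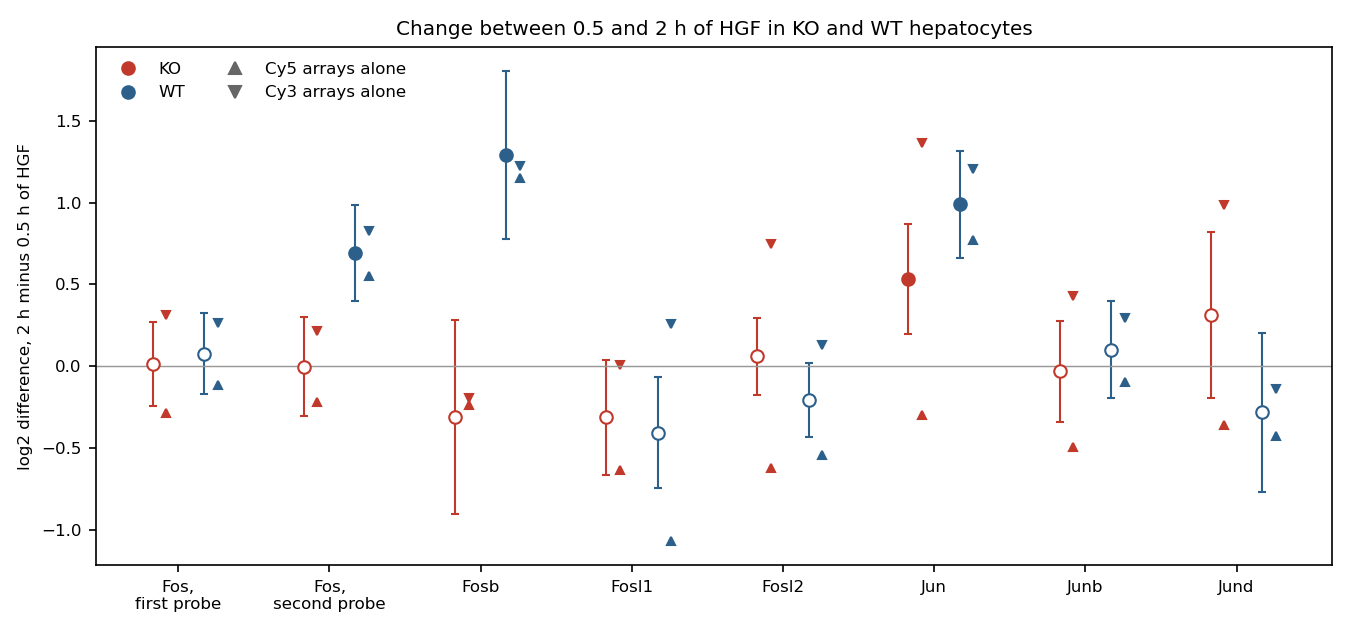
Change of each AP-1 probe between 0.5 and 2 h of HGF (log2, 2 h minus 0.5 h) in KO (red, left) and WT (blue, right) with 95% intervals. Filled circles are called, triangles give Cy5 arrays (pointing up) and Cy3 arrays (pointing down) alone, and Fosb comes from a looser probe filter. In WT the second Fos probe, Fosb and Jun are at 0.69, 1.29 and 0.99, with both orientations above 0.

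Of the 7 tested probes, 2 were called higher at 2 h than at 0.5 h in WT (Jun and the second Fos probe), where 36.5% of all probes were called either way and 13.9% higher. In KO 1 was called (Jun), where 10.6% were called and 4.8% higher. The members' share in WT is thus close to that of the array for this step, in which a large part of all probes changed. All 4 groups but KO 2 h replicate 3 lie in array set D. Within that set the 0.5 h arrays are all numbered before the 2 h arrays, so time and array order cannot be told apart. Over all probes, the step seen on Cy5 arrays and the step seen on Cy3 arrays correlated at r = -0.59 in KO and 0.15 in WT. Jun was called higher in both genotypes, as were 1.43% of all probes.

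Fosl1 and Fosl2, Fos relatives without the strong activation domain of Fos, and Jund, the Jun protein that most resting cells keep at a steady level, were called in no comparison of the weighted limma fit. Fosl1 at 0.5 h stood at 0.17, -0.05 and 0.44 in KO, against 0.50, 0.61 and 0.67 in WT. Every KO replicate lay below every WT replicate, which was so for 22.5% of all probes. The difference of -0.41 ± 0.17 did not pass (adjusted p = 0.0961), although it did in 3 alternatives that changed how array sets were handled (adjusted p from 0.0128). Fosl1 in WT was lower at 2 h than at 0.5 h by -0.41 ± 0.16 (adjusted p = 0.0540), but by -1.07 on Cy5 arrays and 0.26 on Cy3 arrays. This step passed in 14 of 46 alternatives. Fosl2 kept within -0.27 to 0.39 over its 30 replicates, the narrowest range of the members, and its genotype differences ran from -0.13 to 0.26. Fosl2 passed on arrays of 1 dye alone, where its step in KO was -0.63 on Cy5 arrays and 0.74 on Cy3 arrays, and its WT step also passed without WT 0.5 h replicate 3 (-0.35). Jund ran from -0.56 to 1.63. Its highest value, KO replicate 1 at 12 h, rests on 1 Cy5 array at 3.54 whose Cy3 partner read -0.28, while the other 2 replicates of that group were at -0.51 and -0.07, against -0.29, -0.56 and -0.08 in WT. The genotype difference of Jund at 12 h was 0.66 ± 0.30 (adjusted p = 0.256), and 1.09 (adjusted p = 0.0204) without KO replicate 2. On Cy3 arrays alone Jund was lower in KO at 0.5 h (-0.83, adjusted p = 0.0032), but on Cy5 arrays the difference was 0.04.

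Over HGF times against untreated, 0 of the 7 probes were called in WT at 0.5, 2, 12 or 24 h in the weighted limma fit, where 0.048%, 0.233%, 4.13% and 2.15% of all probes were called. In KO 0 were called either, where 0.0274%, 0.199%, 0.796% and 2.68% were. At an unadjusted p under 0.05 there were 5 of 28 member tests in WT and 1 of 28 in KO, and the fit with 1 shared spread called 1 in WT (Jun at 2 h). The difference of the responses between the genotypes was called for 0 members in limma at any time (3 of 28 at an unadjusted p under 0.05), where 0%, 0.0617%, 0.0892% and 0.144% of probes were called from 0.5 to 24 h, and in the joint F-test over the 4 times 0 members were called (lowest adjusted p = 0.459), where 1.21% of probes were.

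The genes that work with AP-1 were counted from lists. Of 9 measured dimer partners out of 12 listed, 2 were higher and 3 lower in KO at 0.5 h (8.7% and 11.1% of all probes), with a median difference of -0.11 against -0.04 over all probes. The small Maf proteins Mafk and Maff, which lack an activation domain, were lower (-0.85 ± 0.12 and -0.90 ± 0.19), and the AP-1 repressor Jdp2 was higher (1.29 ± 0.23). Maff was also lower in KO at 12 h (-0.92 ± 0.23), and Maf was higher at 2 h (0.90 ± 0.17), each the only partner called then (2.5% of all probes were lower at 12 h and 3.13% higher at 2 h). Jdp2 in WT rose at 2 h over 0.5 h by 1.20 ± 0.22, while Maff and Mafk fell by 0.67 ± 0.18 and 0.31 ± 0.11. Over all probes 13.9% rose and 22.6% fell in this WT step. In KO 3 of the 9 partners were called higher over the same step, where 4.8% of all probes were. Averaged over time, Maf was higher in KO and Maff and Mafk were lower (0.60 ± 0.11, -0.66 ± 0.12 and -0.34 ± 0.07), where 4.6% of all probes were higher and 5.05% lower.

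Of the kinase and serum response factor arm, 7 of 16 listed genes were measured, and Mapk9, a JNK that phosphorylates Jun, was the 1 called between the genotypes (0.55 ± 0.13 at 0.5 h). At that time 8.7% of all probes were higher in KO and 11.1% lower. Of 5 measured feedback genes out of 7, Dusp1, the phosphatase that switches MAP kinases off and itself an early gene, was lower in KO at 0.5, 2 and 12 h (-0.88 ± 0.20, -0.77 ± 0.19 and -0.91 ± 0.24). Over all probes 11.1%, 1.39% and 2.5% were lower at these times. Spry1 and Spry2, which restrain receptor signalling, were higher at 0.5 h (0.75 ± 0.19 and 0.69 ± 0.21), where 8.7% of all probes were higher. Of 6 measured cofactor and turnover genes out of 7, 0 were called between the genotypes at any time in limma (0.0137% to 19.8% of all probes). In WT at 2 h over 0.5 h, 1 was higher (Ep300, a co-activator, 0.60 ± 0.13) and 2 were lower, a share near that of all probes for this step (13.9% higher and 22.6% lower).

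Of 11 measured genes with known AP-1 sites out of 18 listed, 1 was lower in KO at 0.5 h and at 12 h, in both cases Hbegf, a growth factor of the EGF family (-1.34 ± 0.12 and -0.59 ± 0.15), where 11.1% and 2.5% of all probes were lower. Averaged over time 3 of the 11 were lower (5.05% of all probes): Hbegf (-0.56 ± 0.07), Cd44, an adhesion receptor (-0.21 ± 0.06), and Plaur, the urokinase receptor (-0.54 ± 0.16). Hbegf was also the 1 gene of this list that rose in WT at 0.5 h over untreated (1.25 ± 0.17, adjusted p = 0.0016). At 2 h over 0.5 h it fell by 1.39 ± 0.13 in WT and by 0.42 ± 0.12 in KO, and the difference of these steps passed (0.97 ± 0.18, adjusted p = 0.0014). Of the 11 genes, 3 fell in WT and 1 in KO over this step, where 22.6% and 5.82% of all probes did. The difference of the steps was called above 0 for 2 of the 11, where 8.14% of all probes were. The list's median difference, KO minus WT, was -0.15 at 0.5 h and -0.22 at 12 h, against -0.04 and 0.00 over all probes. Egr1, an early growth factor induced transcription factor, was lower in KO at 0.5 h (-0.73 ± 0.20, adjusted p = 0.0128) and at 2 h (-1.08 ± 0.19, adjusted p = 0.0014). Junb was called lower at both of these times too.

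Markers of other liver cells were counted beside Junb. In KO at 0.5 h, 1 of 3 measured endothelial markers (Cdh5), 1 of 3 stellate markers (Dcn) and 1 of 5 bile duct markers (Cftr) were lower, and 0 of 4 Kupffer cell markers were called. Over all probes 11.1% were lower then. Mean levels over each list at 0.5 h ran from -0.50 to -0.45 in KO and from -0.14 to 0.00 in WT for endothelial markers, and from -0.36 to -0.08 in KO and from -0.23 to -0.13 in WT for stellate markers. For bile duct markers they ran from -0.25 to -0.19 in KO and from 0.11 to 0.23 in WT, and for Kupffer cell markers from -0.20 to -0.01 in KO and from -0.04 to 0.08 in WT. At 2 h, where Junb differed most among the called times, the only markers of other cells called were higher in KO (Marco of Kupffer cells and Epcam of bile duct cells). Of all probes 3.13% were higher then. At 12 h 1 endothelial marker was lower (Dnase1l3), where 2.5% of all probes were lower. Mean levels of endothelial markers at 12 h ran from -0.70 to -0.30 in KO and from -0.19 to 0.06 in WT. For Kupffer cell markers they ran from -0.35 to -0.17 in KO and from -0.49 to -0.34 in WT. Bile duct markers ran from -0.25 to -0.21 in KO and from -0.26 to -0.24 in WT. Stellate markers ran from -0.48 to 0.78 in KO and from -0.59 to -0.50 in WT. The part of these cell types in the Junb difference was not tested. Log ratios to a pool have no zero, so which markers are absent cannot be read from them. Hepatocyte markers were measured for 7 of 8 genes. At 0.5 h the urea cycle enzymes Cps1 and Ass1 were higher in KO (1.18 ± 0.18 and 0.75 ± 0.11) and Apoa1, a lipoprotein component, was lower (-0.72 ± 0.23). Of all probes 8.7% were higher then and 11.1% lower. Ass1 was also higher at 2 h (0.37 ± 0.11) and 12 h (0.67 ± 0.14), where 3.13% and 1.98% of all probes were. Averaged over time Ass1 and Cps1 were higher (0.54 ± 0.07 and 0.49 ± 0.11), where 4.6% of all probes were. At 24 h over untreated 4 hepatocyte markers had fallen in KO and 3 in WT, among them the plasma proteins Ttr and Serpina1a in both, where 2.37% and 1.36% of all probes fell.

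The probes whose levels ran most like those of Junb were Clic1, a chloride channel protein (r = 0.87 over 29 replicates), Ciao2b, which helps to load iron-sulphur clusters (r = 0.87 over 29), and Cndp2, a dipeptidase (r = 0.84 over 28). After each group's mean was taken out, these fell to 0.56, 0.54 and 0.44, so a good part of the likeness lies in the group means. For Jun they were Pole4, a subunit of DNA polymerase epsilon (0.84 over 30, and 0.79 within groups), 1700020M21Rik (0.78 over 29) and Ighv5-9 (0.77 over 30). For the second Fos probe they began with Pck1, the gluconeogenic enzyme (0.76 over 29, and 0.45 within groups). For Fosl1 they began with D10Wsu102e (0.88 over 29) and for Fosl2 with Anapc15 (0.88 over 30), and for these members the likeness was about as high within groups (0.86 and 0.89). All replicates share the pooled reference, and these values describe the same 30 replicates with no test. Among the members themselves the highest correlation was that of Fosl1 and Junb (r = 0.58 over 29 replicates), and that of Jun and Junb was -0.06.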

How the data were processed

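Two-colour arrays of 30 hepatocyte cultures, each labelled in both dye orientations, gave 60 columns. The authors deposited log2 ratios that are already normalized. The log base was inferred from their range (largest absolute value 11.6), and how they were normalized and which channel is the numerator are not given in the sources used here. Over the 7861 probes with a value on every array, 36 probe profiles agreed between the orientations at r above 0.8 and 2 at r below -0.8, so the swapped arrays were taken as already turned. The titles gave each sample's time, since the treatment field has 0.5 h for the 12 h samples.

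The median of each array was subtracted, and a replicate is the mean of its 2 orientations. Probes needed both orientations in at least 2 of 3 replicates of every group. limma 3.58.1 (R 4.3.3) fitted 1 mean per group giving less weight to groups with a wider spread (residual SD 0.165 to 0.431), and tests were two-sided. The alternative with 1 shared spread, scale normalization, other probe filters, single dyes, dye profiles removed, array set as a term, a replicate block and left-out replicates or sets were run too. The method was tested on simulated data with independent normal noise of each group's spread. These data held no dye or array set effects, so they cannot show how such effects bear on the calls.

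Named were the members, the 3 probes most like each, and up to 3 called genes of a list by the lowest adjusted p. The members and lists were chosen with earlier results of these data known, and the difference of the steps and the removal of both doubted replicates were added after values were seen, as were the alternatives for Fosb and the removal of replicates by the set of either array. Array set as a term took the set of the Cy5 array. Of the probes, 16076 had 1 symbol, 288 several and 5633 none. Figures were drawn with matplotlib 3.10.9 in Python 3.11.15.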

Additional observations from a re-analysis of the deposited data

Results flagged for a closer look

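The change of the second Fos probe between 0.5 and 2 h of HGF differed between the genotypes by -0.69 ± 0.20 (log2, KO minus WT, adjusted p = 0.0282 in limma). The step was 0.00 ± 0.15 in KO and 0.69 ± 0.14 in WT. All 3 WT replicates at 2 h lay above all 3 at 0.5 h, which was so for 20.8% of all probes. The KO replicates of the 2 times overlapped. The comparison was added after the values had been seen, 12.7% of all probes passed it, and it lost its call under 12 of 46 alternatives (adjusted p from 0.0071 to 0.261). For Fosb, in the fit with the looser probe filter, the difference of the steps was -1.60 ± 0.37 (adjusted p = 0.0111), with -0.31 ± 0.28 in KO and 1.29 ± 0.25 in WT. It lost its call under 4 of 13 alternatives, and was -1.02 (adjusted p = 0.0615) without KO 0.5 h replicate 1. Groups of 3 replicates are too small for the search for single outlying replicates that was planned.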

How the results depend on the processing

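Junb averaged over the 5 times was lower in KO in all 44 alternatives that gave a value (-0.87 to -0.70), Jun and the second Fos probe were called higher at 2 h than 0.5 h in WT in all 46, and the difference of the HGF response had 0 AP-1 calls in all 46. For the AP-1 calls between KO and WT over the 5 times (4), the stricter probe filter, which drops Junb, left 1, Cy5 arrays alone gave 2, array set as a term or leaving out sets A and B gave 6 (Fosl1 at 0.5 h and Junb at 24 h being added), and leaving out single replicates gave 3 to 5. The average (1 call) had 0 under that filter, 2 with array set as a term and 2 without the doubted replicates, Fosl1 being the added one, and 1 without any single replicate. HGF against untreated in WT (0) became 1 with the shared spread, scale normalization, Cy3 arrays alone, the turned array, array set as a term, no sets A and B (also counting either array of a replicate) or no doubted replicates, 2 with dye profiles removed, and 0 to 1 without single replicates. In KO (0) it became 1 with array set as a term and 2 without sets A and B, by either count. The step from 0.5 to 2 h (3) became 6 with Cy5 arrays alone, 5 with Cy3 arrays alone and 5 with array set as a term, and 2 to 4 without single replicates. The Jun step in KO was -0.30 on Cy5 arrays alone, and Jun in WT at 2 h against untreated was -0.19 with array set as a term. The cause was not tested. Junb at 24 h passed in 9 of 45 alternatives and did not pass in the other 36. At 12 h it lost its call in 4 of 45, among them without KO 12 h replicate 1 or 3 or WT 12 h replicate 1 (-0.81 to -0.77). The second Fos probe at 0.5 h lost its call in 6, among them without KO replicate 3 (0.36) or WT replicate 3 (0.44).

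The groups share replicate numbers, but these did not pair the samples: for 11 of 30 replicates the best correlation was with the own number, and 50 of 60 same-numbered pairs correlated under 0.1 (-0.24 to 0.64). With genotype and number as a replicate block the estimated correlation was -0.02, Junb averaged over time was -0.77, and the block changed no call of the members.

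Signal over background cannot be judged from deposited ratios. Single arrays carry the high values of Jund in KO at 12 h and of the second Fos probe in WT at 2 h.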
